A study of Danio rerio with 49 samples.

Results

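Immediate early activity genes are transcribed within minutes of a stimulus, such as calcium entry into a neuron or a growth factor at the cell surface, without any need for new protein synthesis. Constitutive factors that already sit on their promoters, among them CREB, SRF with its ELK partners, and MEF2, switch them on when kinases modify these factors. Most of the products are themselves transcription factors, their messages decay quickly, and in the larval zebrafish brain fosab, egr1 and npas4a serve as markers of recent neuronal activity.

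The set named 10 genes, fosab, fosb, egr1, egr3, npas4a, junba, junbb, nr4a1, ier2b and arc, and rows of the count tables were taken by gene name, with letter case ignored and, where no row had the full name, with a final a or b dropped. This rule found 10 of the 37241 rows, and 9 of them among the 32520 rows with values. The second egr1 row has no values. The tables use human-style names for several genes, so the rule returned a pair of NPAS4 rows and a pair of JUNB rows, and the tables do not say which NPAS4 row is npas4a or which JUNB row is junba. These are given with their identifiers: NPAS4 (ENSDARG00000055752) was the abundant NPAS4 copy and NPAS4 (ENSDARG00000087753) the scarce one, while JUNB (ENSDARG00000104773) was the abundant JUNB copy and JUNB (ENSDARG00000074378) the scarcer one. No row was found for arc by the rule, and none for fosab. The row FOS (ENSDARG00000031683) was added outside the rule because RefSeq lists fos as a synonym of fosab. With it, 10 rows are described.

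RNA came from wildtype zebrafish and from MZrlig1 zebrafish, which carry mutant rlig1, the gene of an RNA ligase, and have no intact copy either from the mother or in their own genome. Whole embryos raised in the dark at 28 °C were pooled, 10 to a library, at the 4-cell stage (4 libraries per genotype), sphere (2 per genotype) and shield (3 per genotype), and 8 to a library at bud, 1 day post fertilization (dpf) and 5 dpf (3 per genotype each). Heads were dissected from 5 dpf larvae kept in 14 h of light and 10 h of dark and sorted by their answer to visual motion, 8 to a library, which gave 4 good-responder and 3 bad-responder libraries in wildtype, and 2 good-responder and 4 bad-responder libraries in MZrlig1. No stimulus before collection is described for the whole embryos, and the time from the visual test to dissection is not given in the sources used here.

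Libraries held between 12158453 and 18355308 counts, so that 3 counts correspond to between 0.163 and 0.247 CPM, the count scaled to a common library size. The targeted gene rlig1 had 6 counts in all over the 24 MZrlig1 libraries and between 19 and 1084 in each of the 25 wildtype libraries. Replicate a of MZrlig1 at 1 dpf stood apart, since only 7815 genes had counts in it, while each remaining 1 dpf library had 22619 to 22841, and stage courses of MZrlig1 are given without it. No label ties libraries to separate clutches, so p-values measure the spread between pools. In the heads all 19 neuronal and all 14 photoreceptor marker rows had counts in every library. The heads also held digestive markers at a summed 730 to 10420 CPM and muscle markers at 12320 to 31750 CPM.

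Compared per unit of length, by the authors' FPKM, NR4A1 was the one abundant message of the set before zygotic transcription. It averaged 44.95 FPKM in wildtype 4-cell embryos, and the next highest member, JUNB (ENSDARG00000074378), averaged 0.332 FPKM. At sphere FOS averaged 12.98 FPKM and ier2b 9.62 FPKM, below NR4A1 at 36.8 FPKM. At shield ier2b led with 14.0 FPKM, and at 1 dpf JUNB (ENSDARG00000104773) led with 12.9 FPKM. At 5 dpf the order of mean FPKM in wildtype was egr1 (103), FOS (98.3), JUNB (ENSDARG00000104773) (73.9), ier2b (64.4), JUNB (ENSDARG00000074378) (34.7), NR4A1 (30.3), NPAS4 (ENSDARG00000055752) (29.9), EGR3 (4.42), FOSB (3.43) and NPAS4 (ENSDARG00000087753) (2.60). Libraries overlapped between the neighbours egr1 and FOS, JUNB (ENSDARG00000074378) and NR4A1, NR4A1 and NPAS4 (ENSDARG00000055752), EGR3 and FOSB, and FOSB and NPAS4 (ENSDARG00000087753), and not between the others. The set thus spanned a wide range of levels in the same larvae, with NPAS4 (ENSDARG00000087753), FOSB and EGR3 the scarcest.

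NR4A1 encodes an orphan nuclear receptor that immune and neural cells induce rapidly. Its CPM in the wildtype 4-cell libraries were 101, 112, 120 and 137, and in the sphere libraries 73.9 and 68.4. It then fell to 7.10, 4.62 and 6.06 CPM at shield and to 1.092, 1.096 and 1.681 CPM at bud, rose to 5.52, 7.06 and 8.33 CPM at 1 dpf, and reached 63.9, 65.9 and 65.0 CPM at 5 dpf. No libraries of neighbouring stages overlapped on this U-shaped course. The step from sphere to shield was -3.59 ± 0.21 on the log2 scale (SE, adjusted p = 5.3e-11 by edgeR's quasi-likelihood test), and that from shield to bud -2.19 ± 0.23 (adjusted p = 2.62e-07). The first step, from 4-cell to sphere, was -0.72 ± 0.19 (adjusted p = 0.00453) and missed the threshold without wildtype sphere replicate f (adjusted p = 0.063).

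FOS, a subunit of the AP-1 transcription factor, and ier2b, which encodes a small nuclear protein induced by growth factors, were the members that appeared with the onset of zygotic transcription. FOS had 0 counts over the 4 wildtype 4-cell libraries and 12.8 and 14.3 CPM in the sphere libraries, at least 275-fold higher against 3 counts over the 4-cell group. It fell to 2.00, 2.78 and 3.88 CPM at shield, a log2 change of -2.22 ± 0.29 (adjusted p = 5.17e-06), and its means then lay between 2.07 and 3.50 CPM up to 1 dpf. The ier2b message rose 183-fold between 4-cell and sphere (95% counting interval 50.1 to 1520, from 2 and 248 counts). It was at 17.7, 11.5 and 12.1 CPM at shield and at 4.24, 5.77 and 4.23 CPM at 1 dpf. In this step from 4-cell to sphere 3 of the 10 members were called in wildtype, 2 of them higher, against 41.0% of all genes tested.

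JUNB, the AP-1 partner that dimerizes with FOS proteins, rose in steps. JUNB (ENSDARG00000104773) had 0.33 and 0.39 CPM at sphere, 2.25, 2.05 and 2.80 CPM at shield, 4.03, 5.39 and 5.20 CPM at bud and 11.5, 14.1 and 11.3 CPM at 1 dpf. The 3 steps between these stages were each called higher, with log2 changes of 2.68 ± 0.35 (adjusted p = 2.54e-06), 1.04 ± 0.24 (adjusted p = 0.0015) and 1.33 ± 0.22 (adjusted p = 4.3e-05). JUNB (ENSDARG00000074378) stayed at means between 0.34 and 1.02 CPM up to bud and rose by 3.01 ± 0.39 on the log2 scale to 1 dpf (adjusted p = 2.26e-06).

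Among the factors best known from neurons, egr1 rose by 1 dpf, while EGR3, FOSB and both NPAS4 rows were still scarce then. Egr1, a zinc finger factor induced by synaptic activity and growth factors, was at 0 counts in the sphere libraries and at 5.75, 5.54 and 5.47 CPM at 1 dpf. EGR3, a related factor known in mice from neurons and muscle spindles, stayed at means of 0.0706 to 0.181 CPM from sphere to 1 dpf. FOSB, another AP-1 subunit, stayed at means of at most 0.269 CPM up to 1 dpf. NPAS4, a factor induced almost exclusively by calcium entry into neurons, had 2 counts at ENSDARG00000055752 and 3 counts at ENSDARG00000087753 over the 3 wildtype 1 dpf libraries. All of these counts lay in replicate c. NPAS4 (ENSDARG00000087753) was called higher from sphere to shield in wildtype (adjusted p = 0.0273 by edgeR's quasi-likelihood test), on 0 and 7 counts. The call held in 5 of 9 alternatives.

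Between 1 and 5 dpf all 10 members rose in wildtype, where 62.2% of genes tested were called and 32.4% were called higher. All 10 also rose in MZrlig1 without replicate a, where 52.1% of genes were called and 29.4% were called higher. With replicate a in the fit 8 were called higher there. The changes of EGR3 (log2 change 0.17) and JUNB (ENSDARG00000104773) (2.55) stayed above 0 in that fit but were not called. NPAS4 (ENSDARG00000055752) went from 2 counts to 98.1, 116 and 113 CPM in wildtype, a 2750-fold rise (95% counting interval 762 to 22700). NPAS4 (ENSDARG00000087753) went from 3 counts to 2.64, 3.85 and 2.96 CPM, a 53.7-fold rise (95% counting interval 18.1 to 263). The 1 dpf counts behind both ratios all lay in wildtype replicate c. That library also held rhodopsin at 2.27 CPM, against 0.066 CPM in replicate a and 0 in b. The part of larval RNA in these counts was not tested. FOS went from 1.23, 2.45 and 2.54 CPM to 122, 106 and 113 CPM, a log2 change of 5.78 ± 0.30 (adjusted p = 2.71e-10). Egr1 reached 255, 231 and 241 CPM with a log2 change of 5.44 ± 0.68 (adjusted p = 4.69e-05). Both NPAS4 rows thus went from at most 3 counts over 3 libraries to counts in every library, and FOS and egr1 from a few CPM to over 100 CPM in each library.

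The other members rose less or from a lower level in that step. EGR3 reached 12.6, 9.92 and 9.81 CPM, a log2 change of 5.85 ± 0.74, and FOSB reached 2.705, 3.44 and 2.20 CPM, a log2 change of 3.31 ± 0.68. The log2 changes of NR4A1 and ier2b were both 3.22, with SE of 0.19 and 0.30. Those of the JUNB rows were 2.47 ± 0.22 for ENSDARG00000104773 and 2.33 ± 0.32 for ENSDARG00000074378. In MZrlig1 the called rise of FOSB in this step, 2.53 ± 0.83 (adjusted p = 0.0259), had an adjusted p of 0.275 by DESeq2 and of 0.0931 and 0.185 without replicate b or c at 1 dpf.

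Of 49 tested rows of other immediate early genes, 27 rose and 3 fell from 1 to 5 dpf in wildtype, where 32.4% of all genes were called higher. Those with the largest changes were egr4 (log2 change 7.20 ± 0.80), the phosphatase gene DUSP2 (5.58 ± 0.50), the synaptic pentraxin NPTX2 (ENSDARG00000045164, 4.92 ± 0.86) and the cytokine signalling inhibitor SOCS3 (ENSDARG00000025428, 4.83 ± 0.33). Of 29 rows of upstream factors 6 rose and 9 fell, led by the neuronal kinases CAMK2A (4.62 ± 0.51) and CAMK4 (3.72 ± 0.35). Neuronal markers rose in the same step from a summed 560 to 756 CPM to 3339 to 3658 CPM in wildtype. Photoreceptor markers rose from 14.4 to 27.2 CPM to 8469 to 9296 CPM. In pooled whole animals a change in the number of cells that hold a message and a change in its amount per cell cannot be told apart.

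**Figure D1:**
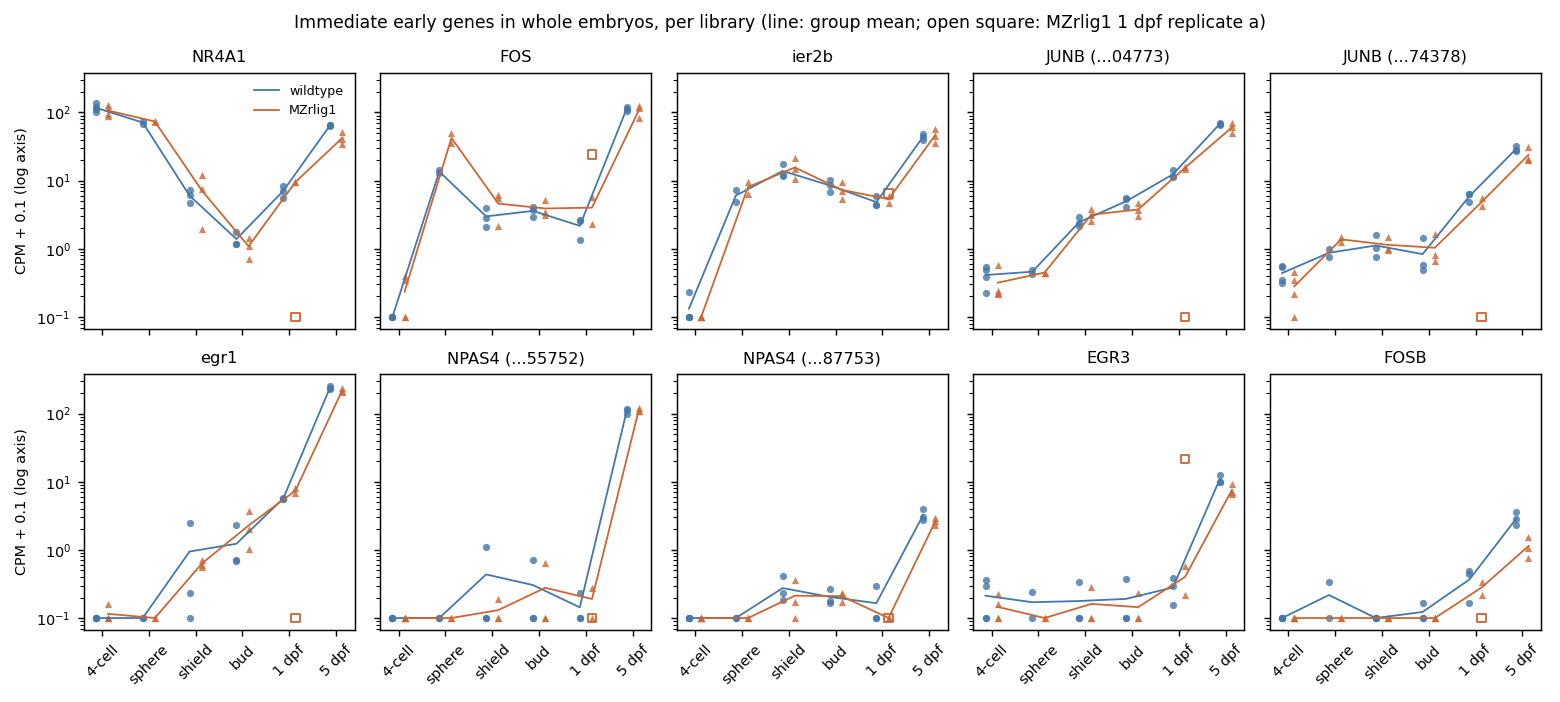
CPM plus 0.1 on a log axis for the 10 rows over 6 stages, 1 point per library, with wildtype in blue circles and MZrlig1 in orange triangles and lines through group means without MZrlig1 1 dpf replicate a (open squares). NR4A1 starts at 101 to 137 CPM in wildtype 4-cell embryos, FOS and ier2b appear at sphere, and all 10 rows rise from 1 to 5 dpf.

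Most early counts of NPAS4 (ENSDARG00000055752) and of EGR3 at shield and bud came from libraries that also held transcripts of larval organs. The same held for egr1 in wildtype at shield and in both genotypes at bud. NPAS4 (ENSDARG00000087753), by contrast, had counts in all 3 wildtype shield and all 6 bud libraries, and egr1 in all 3 MZrlig1 shield libraries. Rhodopsin was at 24.9 CPM in wildtype shield replicate c, at 11.7 CPM in wildtype bud replicate a and at 16.1 CPM in MZrlig1 bud replicate b, and at most at 2.36 CPM in the other 9 shield and bud libraries. Relative to the wildtype 5 dpf mean, shield replicate c held 0.850% of the rhodopsin, 2.13% of the muscle parvalbumin pvalb2 and 2.00% of the trypsin prss1. It held 0.741% of the 5 dpf level of egr1, 0.688% of that of NPAS4 (ENSDARG00000055752) and 1.61% of that of EGR3. Summed over the marker rows, photoreceptor genes were at 103 CPM there against 5.50 and 6.69 CPM in the other wildtype shield libraries, and muscle genes at 1173 CPM against 21.4 and 23.4 CPM.

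Egr1 was at 0, 0.13 and 2.41 CPM in wildtype shield libraries a, b and c, and NPAS4 (ENSDARG00000055752) at 0, 0 and 1.01 CPM. At bud NPAS4 (ENSDARG00000055752) had counts in the same pair of libraries that held rhodopsin, at 0.61 CPM in wildtype replicate a and 0.53 CPM in MZrlig1 replicate b, and 0 counts in the other 4. With shield replicate c and bud replicate a in the wildtype fit, egr1 was called higher from sphere to shield (adjusted p = 0.0421). It was not called from shield to bud (log2 change 0.48 ± 0.94, adjusted p = 0.709). Without these wildtype libraries, an alternative added after the data were seen, the call moved to the later step. From sphere to shield egr1 still rose, by 3.39 on the log2 scale, on 0 and 2 counts in shield replicates a and b. The adjusted p was then 0.0917 for sphere to shield, and a rise was called from shield to bud (adjusted p = 0.0027). In MZrlig1 egr1 was called higher at both steps, at least 6.07-fold against 3 counts over the sphere group and then by 2.04 ± 0.45 on the log2 scale. FOS was present with and without rhodopsin. It was at 2.00 and 2.78 CPM in the wildtype shield libraries with 0 rhodopsin counts and at 3.88 CPM in replicate c. Of the bud libraries with high rhodopsin, MZrlig1 replicate b held the highest FOS value of its group, 5.06 CPM. Wildtype replicate a held the lowest of its group, 2.87 CPM. The part of larval RNA in these early values was not tested further.

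**Figure D2:**
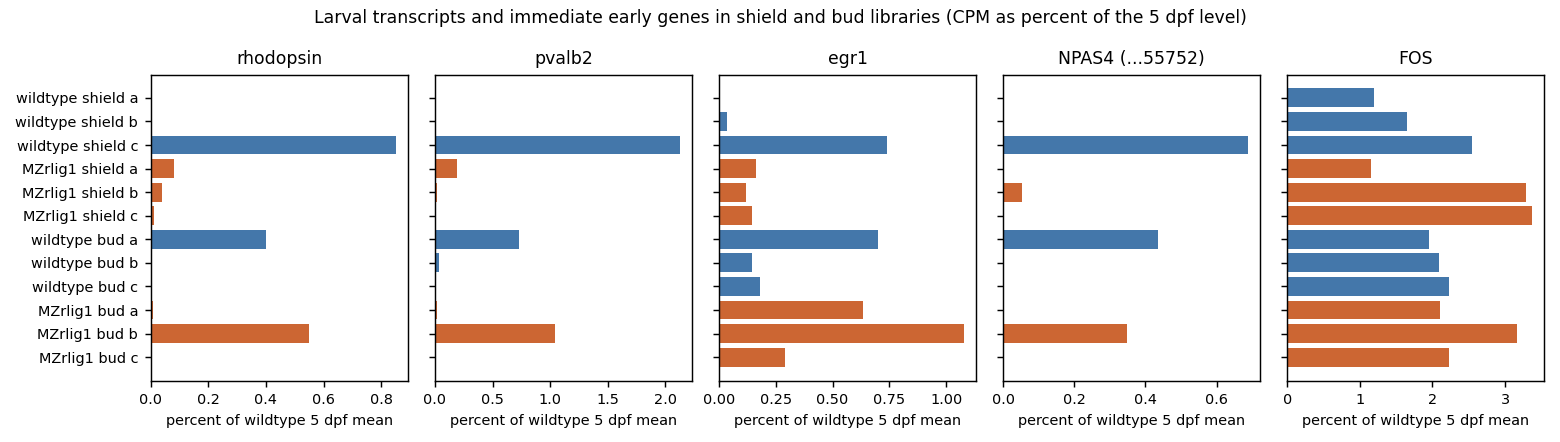
CPM of rhodopsin, pvalb2 and 3 members in each of the 12 shield and bud libraries as a percent of the wildtype 5 dpf mean, with wildtype bars in blue and MZrlig1 bars in orange. Wildtype shield c, wildtype bud a and MZrlig1 bud b hold the high rhodopsin values, 0.850%, 0.399% and 0.551%, and also the highest NPAS4 (ENSDARG00000055752) values, while FOS is present in all 12.

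Counts of called members over the stages were as follows in wildtype. From sphere to shield 6 of 10 were called (56.9% of all genes), 4 higher and 2 lower. From shield to bud 3 were called (48.7% of all genes), JUNB (ENSDARG00000104773) higher and NR4A1 and ier2b lower. From bud to 1 dpf 7 were called (60.8% of all genes), 5 higher and 2 lower, a count that fell to 3 without bud replicate b or without 1 dpf replicate a, and to 4 without bud replicate c. In that step both JUNB rows and NR4A1 (log2 change 2.43 ± 0.23) remained called in each of these settings, while FOS (-0.76 ± 0.29), FOSB (a ratio of 11 with a 95% counting interval from 1.67 to 465, from 1 and 14 counts) and egr1 (2.25 ± 0.74) were not called in any of them.

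The MZrlig1 course, without 1 dpf replicate a, had the same outline. NR4A1 was at 89.1, 94.5, 115 and 129 CPM at 4-cell, 73.4 and 74.0 CPM in the sphere libraries, 1.86, 7.33 and 12.1 CPM in the shield libraries and 9.45 and 9.43 CPM in those of 1 dpf. From 4-cell to sphere 3 members were called (37.5% of all genes), FOS, ier2b and JUNB (ENSDARG00000074378), all higher. From sphere to shield 4 were called (49.9%), from shield to bud 3 (43.1%) and from bud to 1 dpf 5 (49.3%). Ier2b had 0 counts in the MZrlig1 4-cell libraries and was at least 168-fold higher at sphere, against 3 counts over the 4-cell group. With replicate a at 1 dpf in the fit, these last 3 counts became 2, 0 and 1. In that library FOS was at 24.1 CPM and EGR3 at 21.3 CPM, while egr1, NR4A1 and both rows of JUNB and of NPAS4 were at 0.

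The genotypes differed for FOS at sphere. FOS was at 12.8 and 14.3 CPM in the wildtype libraries and at 35.2 and 49.3 CPM in the MZrlig1 libraries. Both MZrlig1 libraries lay above both wildtype libraries. The log2 difference, MZrlig1 minus wildtype, was 1.63 ± 0.17 (SE, n = 2 per genotype, adjusted p = 2.53e-05 by edgeR's quasi-likelihood test), and FOS was called in all 8 alternatives with differences between 1.37 and 1.85. Sphere was also the stage at which 36.0% of all genes tested were called and 34.8% had both MZrlig1 libraries above both wildtype ones. The members were called in 1 of 4 cases there.

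The other members tested at sphere were not called. Ier2b was at 7.20 and 4.68 CPM in wildtype and at 9.53 and 6.37 CPM in MZrlig1, and was called without MZrlig1 replicate f. JUNB (ENSDARG00000074378) was at 0.66 and 0.89 CPM in wildtype and at 1.40 and 1.16 CPM in MZrlig1, a log2 difference of 0.71 with an interval from -0.33 to 1.74. NR4A1, the maternal message, differed by 0.04 with an interval from -0.15 to 0.22. Of 34 other immediate early rows 11 were called at sphere, 6 higher and 5 lower in MZrlig1, beside 36.0% of all genes called. Named by size these were the neurotrophin BDNF (1.78 ± 0.27), the AP-1 subunit FOSL2 (-1.61 ± 0.41), IER5 (1.46 ± 0.11) and the AP-1 subunit JUN (1.45 ± 0.22).

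Factors upstream of the set also differed at sphere. Of 25 tested rows 13 were called, 5 higher and 8 lower, where 36.0% of all genes were called. SRF (ENSDARG00000053918), the factor that binds serum response elements, was higher in MZrlig1 by 1.03 ± 0.24 at sphere (adjusted p = 0.00501 by edgeR's quasi-likelihood test). It was also higher at the 4-cell stage, by 1.33 ± 0.22 (adjusted p = 0.00665 by the same test). There 1 of 24 upstream rows was called, beside 3.16% of all genes. MEF2D (-1.29 ± 0.25), the acetyltransferase and CREB cofactor CREBBP (ENSDARG00000104609, -1.21 ± 0.13) and the SRF cofactor mrtfab (-1.07 ± 0.15) were lower in MZrlig1 at sphere. The second rows of SRF and of CREBBP were not among the 4 largest called changes at sphere.

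At 5 dpf NR4A1 was at 63.9, 65.9 and 65.0 CPM in wildtype and at 40.8, 51.4 and 34.6 CPM in MZrlig1 larvae. All 3 MZrlig1 libraries lay below all 3 wildtype libraries. The log2 difference was -0.68 ± 0.13 (adjusted p = 0.0482 by edgeR's quasi-likelihood test), and NR4A1 was the 1 member of 10 called, against 1.02% of all genes. The call rested close to the threshold: leaving out any 1 wildtype library (adjusted p = 0.164, 0.205 and 0.257), MZrlig1 replicate a (0.30) or c (0.112), or fitting all whole-embryo libraries together (1.00) removed it, while the difference stayed between -0.56 and -0.69.

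Several members that were not called at 5 dpf had lower values in MZrlig1 too. FOSB was at 2.705, 3.44 and 2.20 CPM in wildtype and at 1.47, 0.66 and 0.98 CPM in MZrlig1, a log2 difference of -1.46 ± 0.35 (adjusted p = 0.136; 0.0453 by DESeq2). EGR3 was at 12.6, 9.92 and 9.81 CPM in wildtype and at 9.01, 6.49 and 6.97 CPM in MZrlig1, a difference of -0.57 ± 0.19 (adjusted p = 0.334). For both, as for NR4A1, the genotypes' libraries did not overlap, a pattern in this direction that 6.19% of genes showed. JUNB (ENSDARG00000074378) was at 27.3, 28.4 and 32.2 CPM in wildtype and at 20.5, 30.9 and 19.98 CPM in MZrlig1, a difference of -0.36 ± 0.16 (adjusted p = 0.492).

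In these CPM, which carry factors computed over all whole-embryo libraries, the most abundant members overlapped between the genotypes at 5 dpf. FOS was at 122, 106 and 113 CPM in wildtype and at 115, 124 and 84.0 CPM in MZrlig1, a log2 difference of -0.13 with an interval from -0.41 to 0.14. Egr1 was at 255, 231 and 241 CPM in wildtype and at 238, 214 and 208 CPM in MZrlig1, a difference of -0.18 with an interval from -0.41 to 0.04. By CPM of the total count egr1 did not overlap, at 291.2 to 301.5 in wildtype and 214.1 to 279.8 in MZrlig1. Nor did JUNB (ENSDARG00000104773), at 80.6 to 84.4 and 61.6 to 72.2, or JUNB (ENSDARG00000074378), at 32.3 to 39.1 and 24.0 to 30.9. The overlap of these rows thus depended on the scaling, and the share of all genes apart by total count was not computed. NPAS4 (ENSDARG00000055752) was at 98.1, 116 and 113 CPM in wildtype and at 122, 109 and 110 CPM in MZrlig1, a difference of 0.01 with an interval from -0.21 to 0.24. In all, 8 of the 10 differences were below 0, with a median of -0.29 beside -0.01 over all genes tested. Stress-related lists ran the same way: of 7 glucocorticoid response genes 6 were below 0 and 3 were called, 1 higher and 2 lower, and of 12 heat shock genes 10 were below 0 and none was called. Tissue lists mostly ran the other way, with 14 of 19 neuronal, 9 of 10 digestive and 8 of 12 muscle rows above 0. Of 14 photoreceptor rows 9 were below 0. Glucocorticoid response genes summed to 574 to 672 CPM in wildtype and 475 to 496 CPM in MZrlig1 larvae, and heat shock genes to 308 to 337 and 277 to 303 CPM, and their part in the members' values was not tested. Of 48 other immediate early rows none was called, 28 of them were below 0 and their median was -0.08, and of 29 upstream rows none was called and 25 were below 0.

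**Figure D3:**
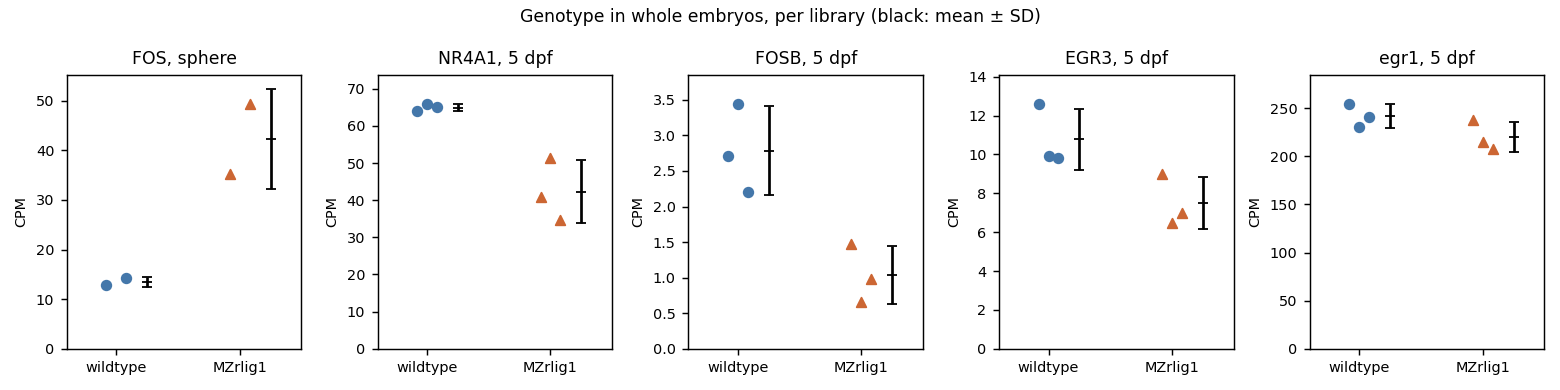
CPM per library for FOS at sphere and for NR4A1, FOSB, EGR3 and egr1 at 5 dpf in whole embryos, wildtype in blue circles and MZrlig1 in orange triangles, with the mean and SD in black. FOS at sphere is higher in both MZrlig1 libraries, and NR4A1, FOSB and EGR3 at 5 dpf are lower in all 3 MZrlig1 libraries. The egr1 libraries overlap in the CPM drawn here, though not by CPM of the total count.

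At the other stages no member was called between the genotypes by edgeR's quasi-likelihood test or by DESeq2, and none had an unadjusted p under 0.05. A single row reached the test at 4-cell (3.16% of all genes called), 5 rows did so for shield (3.84%), 6 for bud (0.814%) and 6 for 1 dpf (0.0%). At 1 dpf the median difference of all genes was -0.41 with the MZrlig1 library of few genes and -0.0009 without it. Without that library FOS was at 1.23, 2.45 and 2.54 CPM in wildtype and at 5.597 and 2.237 CPM in MZrlig1 (adjusted p = 0.598). At bud 2 of 42 other immediate early rows were called, RGS2, a regulator of G protein signalling (3.12 ± 0.35), and EGR2 (ENSDARG00000042826, 2.28 ± 0.28), both higher in MZrlig1.

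Whether the genotype difference changed with stage was tested jointly over all stages, without MZrlig1 1 dpf replicate a. No member was called by edgeR's quasi-likelihood test, where 5.92% of genes were. FOS had the smallest p of the set (0.0151, adjusted p = 0.131) and was called by the likelihood ratio test of DESeq2 (adjusted p = 0.0109). A difference between stages for FOS was therefore called by 1 of the 2 tools. NR4A1 was not called (adjusted p = 0.492), except without MZrlig1 shield replicate a.

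In the heads every member was detected, and the highest of the 13 libraries exceeded the lowest by between 1.419-fold, for EGR3, and 6.35-fold, for FOSB. Egr1 ranged from 96.2 to 173 CPM with a median of 126, NPAS4 (ENSDARG00000055752) from 35.3 to 70.8 CPM with a median of 50.4, and JUNB (ENSDARG00000104773) from 28.5 to 47.4 CPM with a median of 41.0. FOS ranged from 17.8 to 33.4 CPM, JUNB (ENSDARG00000074378) from 18.7 to 36.4, ier2b from 16.4 to 34.1, NR4A1 from 11.03 to 19.75 and EGR3 from 9.64 to 13.7 CPM. The scarce members were NPAS4 (ENSDARG00000087753), from 1.26 to 4.18 CPM, and FOSB, from 0.659 to 4.18 CPM. After group means were removed, the SD on the log2 scale was 0.174 for EGR3 and 0.198 for egr1, against a median of 0.27 over 14620 genes with a mean of at least 5 CPM, and 0.316 for NPAS4 (ENSDARG00000055752). By mean FPKM in wildtype good responders, egr1 (47.9) again led, followed by JUNB (ENSDARG00000104773) (34.6) and ier2b (25.9), and FOS (17.8) stood behind both JUNB rows.

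No member was called in any of the 6 head comparisons by edgeR's quasi-likelihood test or by DESeq2. Of all genes, 0.708% were called between good-responder heads of the genotypes, 0.983% between those of bad responders and 2.73% when behaviour was averaged out. Between bad and good responders 0.0% of genes were called in wildtype and 0.00466% in MZrlig1, and 0.0% for the interaction of genotype and behaviour.

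Differences of bad-responder heads between the genotypes all lay above 0, for 10 of 10 members, with a median of 0.30 on the log2 scale beside 0.02 over all genes. Other lists lay above 0 as well in this comparison, the digestive markers in 10 of 10 rows (median 0.40), glucocorticoid response genes in 7 of 7 (0.34), neuronal markers in 17 of 19 (0.12), photoreceptor markers in 13 of 14 (0.13) and upstream factors in 24 of 29 (0.19). Below 0 lay 10 of 12 muscle rows (median -0.22), 5 of 5 blood and vessel rows (-0.21) and 8 of 12 heat shock rows (-0.23). Their part in the members' values was not tested. JUNB (ENSDARG00000104773) was at 35.2, 36.6 and 35.6 CPM in wildtype and at 43.8, 44.6, 46.6 and 43.1 CPM in MZrlig1 bad responders, so that its groups did not overlap, as for 4 members in this direction and 4.67% of all genes. The difference was 0.31 ± 0.17 (adjusted p = 0.879). Egr1 was at 114, 114 and 117 CPM in wildtype and at 126, 145, 144 and 148 CPM in MZrlig1, again without overlap (0.29 ± 0.16, adjusted p = 0.899).

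NPAS4 (ENSDARG00000055752) was at 45.8, 36.8 and 55.2 CPM in wildtype and at 56.8, 70.8, 59.5 and 67.5 CPM in MZrlig1 bad responders, also without overlap (0.47 ± 0.22, adjusted p = 0.75). NR4A1 was at 13.04, 12.36 and 13.6 CPM in wildtype and at 18.6, 15.1, 15.9 and 19.8 CPM in MZrlig1 (0.42 ± 0.20, adjusted p = 0.742), without overlap and with the opposite sign to the whole larvae at 5 dpf. FOS differed by 0.02 with an interval from -0.38 to 0.43. In good responders 3 of 10 differences were above 0, with a median of -0.10 beside -0.04 over all genes, from 2 MZrlig1 libraries.

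The behaviour contrast, bad minus good responders, was below 0 in wildtype for 9 of 10 members, with a median of -0.12 beside -0.03 over all genes. Neuronal markers were below 0 there in 17 of 19 rows, and other immediate early rows above 0 in 31 of 50. In MZrlig1 8 of 10 members were above 0, with a median of 0.27 beside 0.03 over all genes. Other immediate early rows were above 0 there in 25 of 50 (median 0.01) and upstream rows in 26 of 29 (0.35). Neuronal rows were above 0 in 7 of 19 (-0.05) and digestive rows in 1 of 10 (-0.63). In wildtype NPAS4 (ENSDARG00000055752) differed by -0.01 with an interval from -0.44 to 0.43. NPAS4 (ENSDARG00000087753) differed by -0.02 with a wide interval, from -0.72 to 0.69. In MZrlig1 NPAS4 (ENSDARG00000055752) was at 50.4 and 35.8 CPM in good responders and at 56.8, 70.8, 59.5 and 67.5 CPM in bad responders. The difference of 0.56 ± 0.26 had an unadjusted p of 0.0473 and an adjusted p of 0.821. NPAS4 (ENSDARG00000087753) was at 2.09 and 1.26 CPM in good and at 4.18, 3.07, 2.65 and 3.73 CPM in bad responders (1.03 ± 0.43, unadjusted p 0.0313, adjusted p = 0.821).

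Both NPAS4 rows, like FOS and JUNB (ENSDARG00000104773), thus had all 4 MZrlig1 bad-responder libraries above both MZrlig1 good-responder libraries, a pattern of 5.81% of all genes, without passing the adjusted test. Tissue markers differed between the same libraries: muscle markers summed to 12320 to 18920 CPM in bad and 21370 and 22300 CPM in good responders of MZrlig1, with 11 of 12 rows below 0, and 13 of 14 photoreceptor rows were above 0. Their part was not tested. The interaction of genotype and behaviour was 0.57 ± 0.34 for NPAS4 (ENSDARG00000055752) and 1.05 ± 0.56 for NPAS4 (ENSDARG00000087753), and for egr1 0.52 ± 0.24 (unadjusted p 0.0490), each with an adjusted p of 0.856. Averaged over behaviour, JUNB (ENSDARG00000074378) differed between the genotypes by 0.35 ± 0.14 (unadjusted p 0.0236, adjusted p = 0.296).

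Beyond the members, 1 of 50 other immediate early rows and 1 of 29 upstream rows were called in heads. Both calls were between the genotypes averaged over behaviour, where 2.73% of all genes were called, so these counts were near that share. The salt-inducible kinase gene SIK1, a target of CREB, was higher in MZrlig1 heads by 0.42 ± 0.10 (adjusted p = 0.0345). Of the CREB rows, CREB1 (ENSDARG00000093420) was lower in MZrlig1 heads (difference -0.77 ± 0.15, adjusted p = 0.0103), while the more counted creb1a was not called (0.04 ± 0.12, adjusted p = 0.978).

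**Figure D4:**
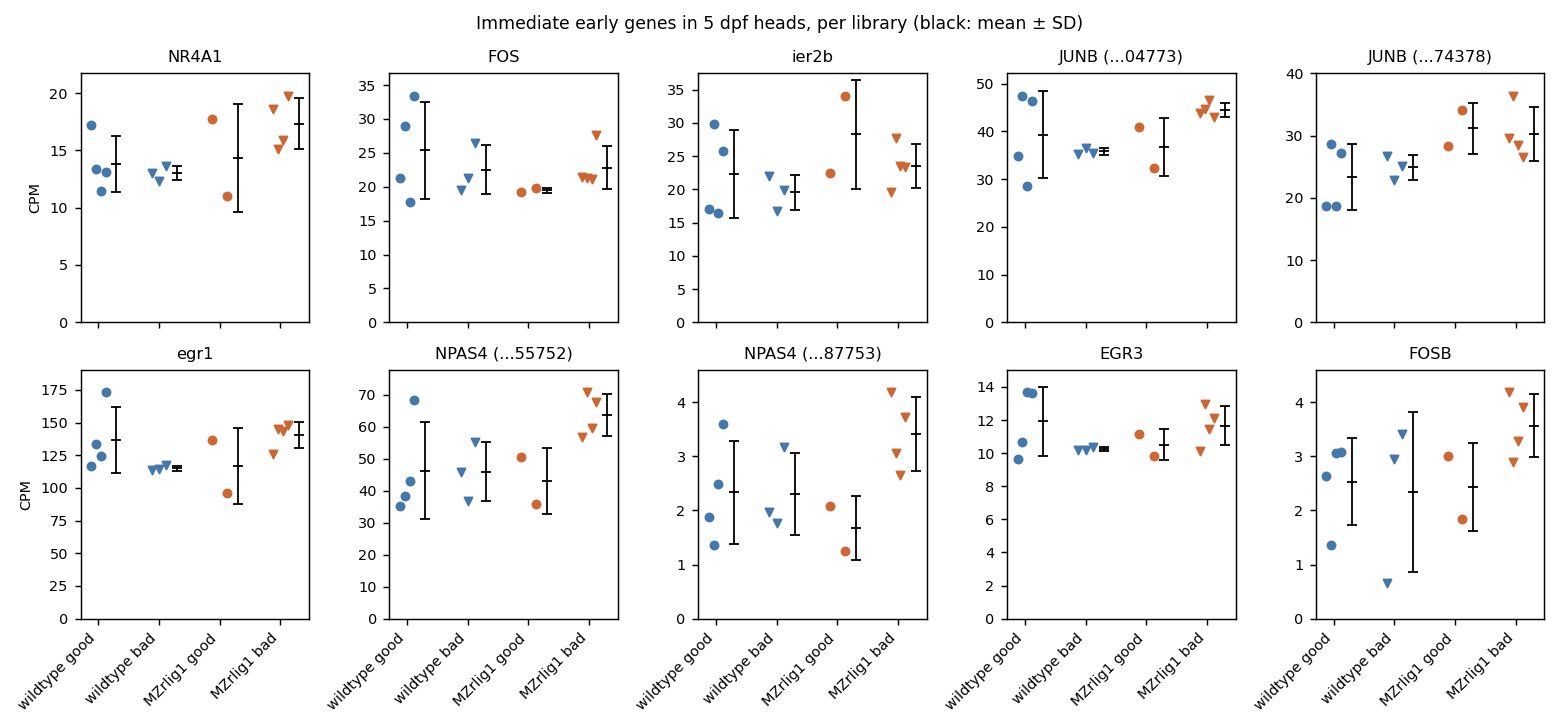
CPM per head library for the 10 rows in 4 groups, wildtype in blue and MZrlig1 in orange, circles for good and downward triangles for bad responders, with the mean and SD in black. FOS ranges from 17.8 to 33.4 CPM over all libraries, and NPAS4 (ENSDARG00000055752) is at 56.8 to 70.8 CPM in MZrlig1 bad responders.

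Single head libraries moved many members together. Wildtype good-responder replicate 4 lay above its group mean for 9 of 10 members, by 0.335 on the log2 scale on average, and was among the 3 highest of the 13 libraries for 6. FOS was at 33.4 CPM there against 17.8 to 29.0 CPM in its replicates, egr1 at 173 against 117 to 133 and NPAS4 (ENSDARG00000055752) at 68.3 against 35.3 to 43.0. MZrlig1 good-responder replicate 3 was among the 3 lowest libraries for 7 members, with egr1 at 96.2 CPM, and yet held the highest ier2b value, 34.1 CPM. Wildtype good-responder replicate 1 was below its group mean for 8 of 10. Wildtype bad-responder replicate 4 was above its group mean for 9 of 10, by 0.195 on average. That average came mostly from the scarce FOSB (0.787) and NPAS4 (ENSDARG00000087753) (0.481), with NPAS4 (ENSDARG00000055752) at 0.285 and FOS at 0.249. The remaining members lay between -0.01 and 0.066, close to their group means. The share of all genes above the group mean in these libraries was not computed.

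The makeup of the dissected tissue differed between the same libraries. The summed digestive markers were lowest in wildtype good-responder replicate 4, at 730 CPM, and highest in wildtype good-responder replicate 1, at 10420 CPM. Neuronal markers were highest in the first of these, at 5957 CPM, and lowest in the second, at 3890 CPM. Wildtype bad-responder replicate 4 held the fewest digestive markers of its group, 2788 CPM, and the most neuronal ones, 5221 CPM. Wildtype good-responder replicate 3 also held few digestive markers (2535 CPM) and many neuronal ones (5720 CPM). Yet it was above its group mean for 3 of 10 members, with a mean deviation of -0.13. MZrlig1 good responders held 9413 and 8199 CPM of digestive markers, MZrlig1 bad responders 2289 to 9065 CPM. With the digestive sum as a covariate, added after the data were seen, no member was called in any head comparison. None was called without it either, so this fit cannot show the part of tissue makeup. How much of the shared movement follows tissue makeup was not tested.

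**Figure D5:**
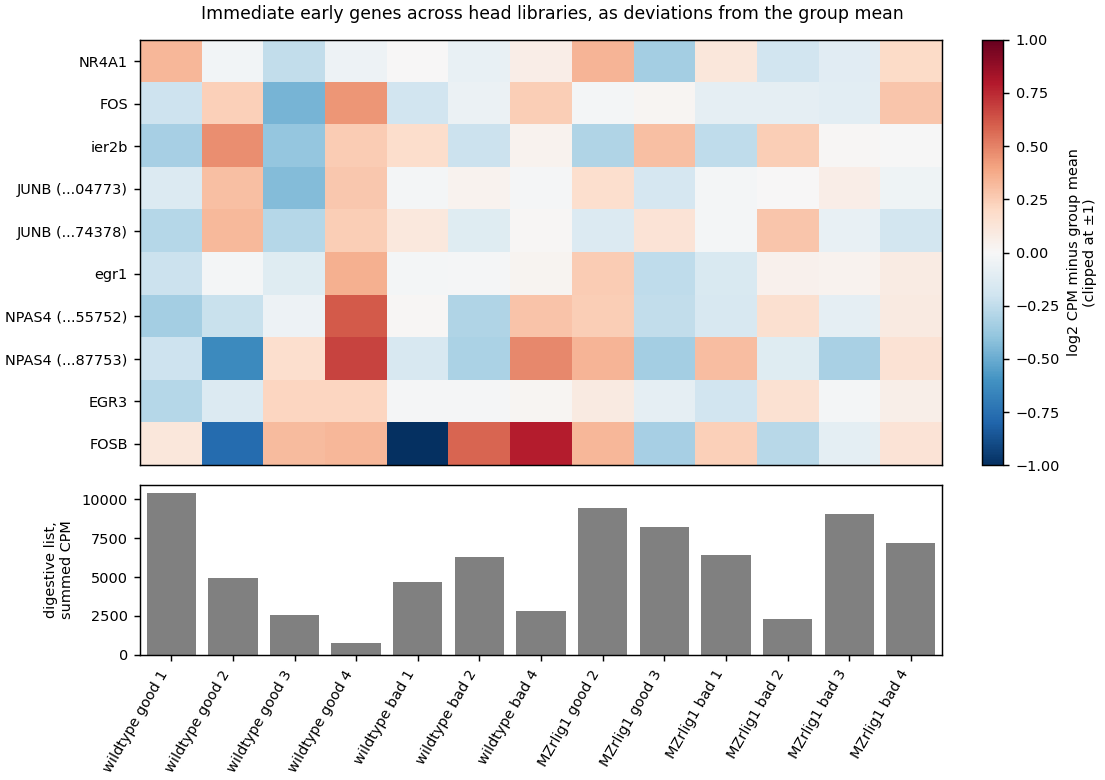
Upper panel, log2 CPM of each row minus its group mean in each of the 13 head libraries, red above and blue below, and lower panel, summed CPM of the digestive marker list in the same libraries. Wildtype good-responder 4 is red for 9 of 10 rows and has the lowest digestive sum, 730 CPM.

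The members did not all move together. Over the 13 head libraries, in each of which all members share 1 tissue makeup and depth, deviations of a member from its group means correlated with the mean of the other members at 0.825 for NPAS4 (ENSDARG00000055752), 0.785 for egr1, 0.678 for FOS and 0.607 for NPAS4 (ENSDARG00000087753). The values were 0.461 and 0.154 for the JUNB rows ENSDARG00000104773 and ENSDARG00000074378, 0.428 for EGR3, 0.117 for FOSB, 0.093 for NR4A1 and -0.007 for ier2b. Among 14612 other genes with a mean of at least 5 CPM, the 5 whose deviations were most like the mean of the members were GPR61 (0.85), zgc:172282 (0.841), ift74 (0.839), PRMT9 (0.83) and si:ch211-63p21.1 (0.83). The median was 0.028 over all these genes, 0.111 over 42 other immediate early rows, 0.355 over neuronal and -0.704 over digestive marker rows.

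Whole 5 dpf larvae and 5 dpf heads were set side by side as CPM of the total count, without a test, because the tables were made separately and the animals differed in light regime as well as in tissue. In wildtype 7 of 10 members had every larval library above every head library, a pattern shown by 12.4% of genes, and in MZrlig1 6 of 10, against 9.52% of genes. FOS was at 134 to 145 CPM in wildtype larvae and at 18.5 to 34.6 CPM in wildtype heads, a ratio of means of 5.71. NR4A1 was at 75.7 to 83.3 CPM in larvae and at 12.1 to 17.6 CPM in heads, a ratio of 5.84. The ratio was 2.85 for NPAS4 (ENSDARG00000055752), 2.55 for ier2b and 2.29 for egr1, and libraries overlapped for FOSB, EGR3 and NPAS4 (ENSDARG00000087753).

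The median ratio of larvae to heads was 2.23 over the members and 1.18 over 49 other immediate early rows in wildtype. In MZrlig1 it was 1.75 over the members and 1.01 over 48 other rows. There FOSB (0.372), EGR3 (0.760) and JUNB (ENSDARG00000074378) (0.875) had lower means in larvae, with overlapping libraries. Of the other rows 17 had every larval library above every head library in wildtype, where 12.4% of genes did. In MZrlig1 10 did, against 9.52% of genes. Every larval library lay below every head library for 5 rows in wildtype and 10 in MZrlig1. The share of all genes in that direction is not given here, so whether these counts are usual cannot be told. Among these others SIK1 (3.92), the antiproliferative gene BTG2 (4.77) and the phosphatase gene DUSP1 (3.49) were also higher in every wildtype larval library. NR4A3 (0.437) and BDNF (0.430) were lower in every one. Neuronal markers summed to 3339 to 3658 CPM in wildtype larvae and to 3890 to 5957 CPM over all heads, so that neuronal markers ran opposite to the 7 members. Muscle markers summed to 66820 to 76760 CPM in the wildtype larvae. Tissue, light regime and handling cannot be told apart in this contrast.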

How the data were processed

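Poly(A)-enriched RNA of pooled embryos or heads was sequenced, per the labels' protocols. STAR 2.7.10b, Salmon 0.14.1, DESeq2 1.42.1 and the build GRCz11 are named in the submitters' processing notes, without their roles; use of strand is not given in the sources used here, so overlapping genes and near-identical copies may share reads. The authors deposited raw counts per gene, which were tested here, and FPKM, used here only to compare levels between genes. Their normalised values (49 columns) were not used.

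The edgeR 4.0.16 quasi-likelihood test (R 4.3.3; TMM, filterByExpr, robust fit, Benjamini-Hochberg adjustment over all genes tested) was the main test, and called means an adjusted p under 0.05. Each stage was fitted alone, the 13 head libraries with 4 groups, and stage steps within a genotype. CPM carry TMM factors unless given as of the total count. SE is the log2 change over the square root of F. Intervals of log2 differences are the estimate ± 1.96 SE, a normal approximation. With so few libraries they are narrower than 95% intervals of the F test would be. A difference larger than 1.96 SE can therefore have an unadjusted p over 0.05. Counting intervals and bounds cover counting error only. A self-test on simulated counts was run.

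Members and gene lists were chosen with earlier results of these data known. All 10 rows enter the counts of every comparison in which they were tested. Values of single rows are given for only some of them in a comparison. Of 2 further lists, other immediate early genes (44 of 52 names, 50 rows) and upstream factors (25 of 30 names, 29 rows), up to 4 called rows with the largest change are named per comparison. BTG2, DUSP1, SIK1, NR4A3 and BDNF beside larvae and heads were picked after their values were seen. Alternatives were DESeq2 1.42.0, its size factors, no filter on low counts, other sets of libraries, a replicate block and leaving out each library. Replicate letters paired libraries across genotypes only at bud (correlations of deviations 0.357, 0.486 and 0.327), where the labels give no shared origin. No genome or sequence table of the files' build was used.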

Additional observations from a re-analysis of the deposited data

Results flagged for a closer look

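Checked were 22 sets of values, each of 1 member in 1 group of at least 4 libraries, and in 1 set a library stood apart from its replicates. FOS in MZrlig1 bad-responder heads was at 27.56 CPM in replicate 4 and at 21.10 to 21.37 CPM in the other 3, a gap of 0.958 of the group's whole range. The rule's nominal rate is about 1 in 20 such sets by chance, and these sets share libraries. That library was also the highest of all 13 for NR4A1, at 19.75 CPM, and among the 3 highest for 6 members.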

How the results depend on the processing

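Over 23 comparisons the count of called members was recomputed under 329 alternatives and stayed within 1.5 times its main value in 311. At sphere it ranged from 1 to 2 when 1 library was left out. At 5 dpf, where 1 member was called, DESeq2 called 2, the replicate block 0 and the fit over all whole-embryo libraries 0, and leaving out 1 library gave 0 to 2; with the block NR4A1 had an adjusted p of 0.225. In wildtype from bud to 1 dpf it was 3 to 7 with 1 library left out. With MZrlig1 1 dpf replicate a in the fit, MZrlig1 counts were 2 from sphere to shield, 0 from shield to bud and 1 from bud to 1 dpf. In the joint test over stages the likelihood ratio test of DESeq2 called 1 member, and leaving out 1 library gave 0 to 1. The cause of these moves was not tested. Over all 2932 alternatives of single members, called or not, 68 lost a call and 21 gained one; 112 changed sign, 0 of them in a fit that called the member. The replicate block changed no other count of called members by over 1.5 times. At 3 counts a library, 0.163 to 0.247 CPM, the early values of NPAS4, EGR3 and FOSB were at the limit of detection.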
